A study of Mus musculus with 8 samples.

Results

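Gpnmb, Cd68, Acp5, Ctsk, Ctss, Lyz2, Laptm5, Ptprc and Csf1r are 9 of the 24067 genes measured in cultured mouse articular chondrocytes. They were taken by gene symbol. Gpnmb, Cd68, Acp5, Ctsk, Ctss, Lyz2 and Laptm5 encode proteins of lysosomes or secreted from them that are used as markers of macrophages and osteoclasts, and Ptprc and Csf1r encode surface receptors that define leukocytes and the macrophage lineage. They were chosen by symbol with their FPKM values in these 8 libraries, and the differences between the groups, already known, so their own differences are a description. No p-value is printed for any of the 9. Which of them passed a threshold, and how many, is given as a description, and nothing is read from it.

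The cells were chondrocytes, which make and maintain cartilage, isolated from the articular ends of the femur and tibia of 5-day-old ICR mice and cultured at low oxygen in medium with serum. In the miR-204 group (4 libraries) a miR-204 mimic was transfected at 50 nM, and in the miR-Ctrl group (4 libraries) a control small RNA at 50 nM. Transfection lasted 24 h and the cells were harvested 24 h after it ended. No genotype was altered, and both groups share the strain, the age and the transfection. The labels do not say whether libraries came from separate mice, pooled mice or separate cultures.

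Macrophages and osteoclasts descend from the same blood lineage and need CSF1, which binds the receptor made by Csf1r. Osteoclasts then resorb bone with acid and secreted lysosomal enzymes. Lysosomal genes are also transcribed in other cell types, under the MiT/TFE factors (Mitf, Tfeb, Tfe3 and Tfec). Ptprc and Csf1r, by contrast, are largely limited to blood cells, and their levels are given beside those of the other 7 genes.

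The sequences that bear on the mimic are the mature miR-204-5p, with its seed (bases 2 to 8) in capitals, and stretches of at most 30 bases around matches to that seed in 3′ UTRs, with the match in capitals. A match to bases 2 to 8 reads AAAGGGA in DNA letters. An 8mer adds an A after it, a 7mer-m8 does not, a 7mer-A1 reads AAGGGAA, and a 6mer reads AAGGGA. Gpnmb and Ctsk are shown because they are the highest of the 9 genes and each holds 1 match. Lamp1 and Ctsb, lysosomal genes outside the 9, are shown for their 8mers and were chosen after their values were seen.
miR-204-5p: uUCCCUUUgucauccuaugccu
Gpnmb 7mer-A1: agtgaccctggtAAGGGAActgtctgca
Ctsk 6mer: tggtggctttggAAGGGAgtgggcatgg
Lamp1 8mer: ttaagccttacAAAGGGAAtctctggtc
Ctsb 8mer: aagtacagttcAAAGGGAAcagggagcc
The miRNA sequence is that of RefSeq (GRCm38.p6, chr19:22750610-22750631, plus strand). The sites were read from GENCODE M21 transcripts on GRCm38, the assembly of mm10. The matches lie at chr6:49058023-49058029 (Gpnmb, plus strand), chr3:95508990-95508995 (Ctsk, plus strand), chr8:13174892-13174899 (Lamp1, plus strand) and chr14:63143453-63143460 (Ctsb, plus strand).

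Values are FPKM, fragment counts scaled to transcript length and to sequencing depth, so levels can be compared between genes. Gpnmb had the highest mean of the 9 genes, at 90.8 FPKM over the 8 libraries, above 97.2% of all listed genes. Ctsk averaged 15.3, Acp5 9.19, Lyz2 7.26, Laptm5 3.56 and Cd68 2.72 FPKM. Ctss was at 0.137, Csf1r at 0.111 and Ptprc at 0.0109 FPKM. Gpnmb exceeded Ctsk in 8 of 8 libraries, Cd68 exceeded Ctss in 8 of 8, and Csf1r exceeded Ptprc in 8 of 8. Every other neighbouring pair in this order changed places in at least 3 of the 8 libraries, so those neighbours did not differ beyond their spread. Testing needed a mean of 1 FPKM or more, which 6 of the 9 genes reached and Ctss, Csf1r and Ptprc did not.

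**Figure D1:**
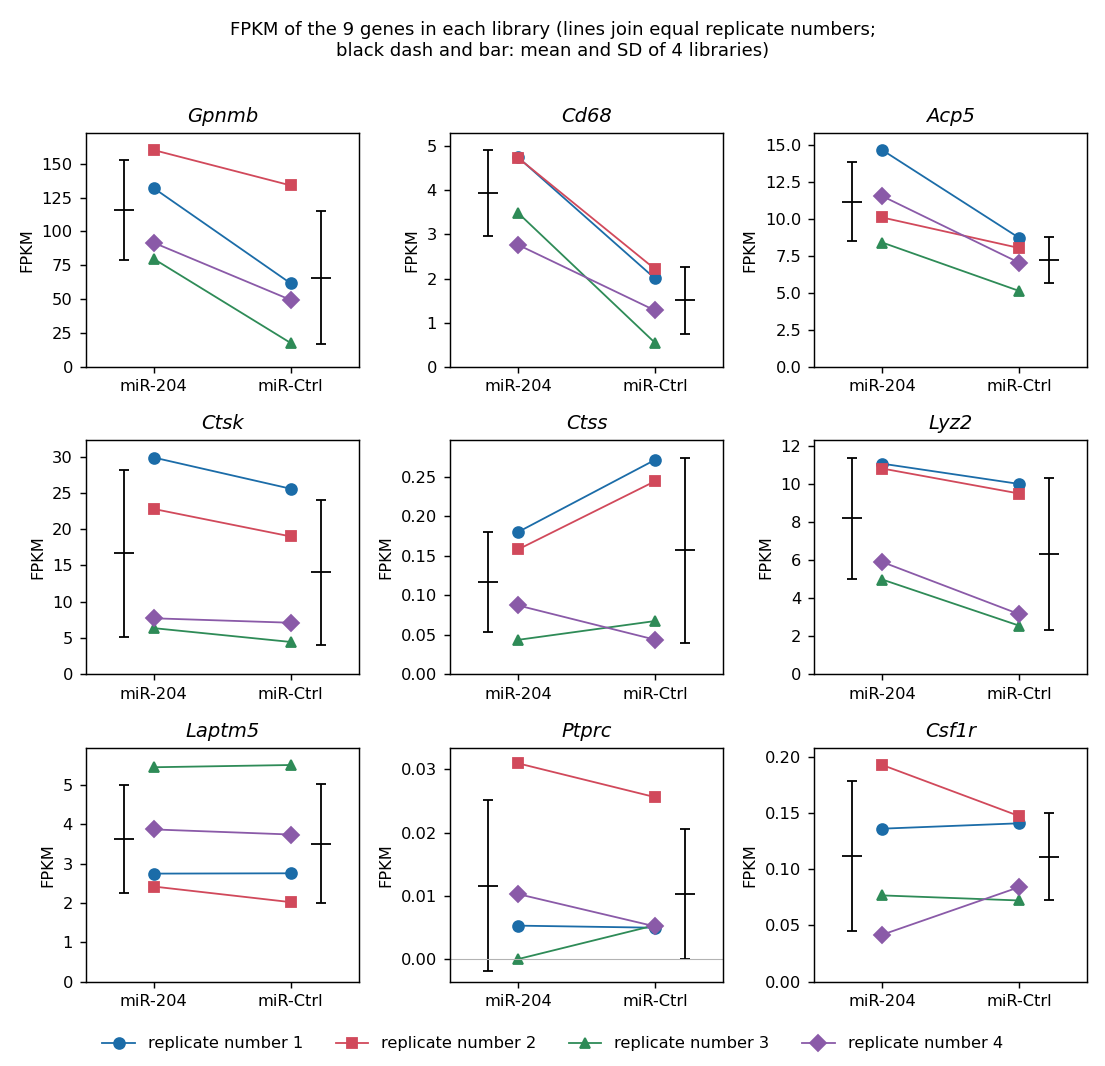
FPKM of each of the 9 genes in the 4 miR-204 and the 4 miR-Ctrl libraries, on linear axes that differ between panels; lines join libraries of equal replicate number, and the black dash and bar give the mean and SD. Cd68 lies between 2.76 and 4.75 FPKM with miR-204 and between 0.545 and 2.22 with miR-Ctrl, and is the only panel in which all miR-204 points lie above all miR-Ctrl points.

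The libraries as a whole summed to between 416560 and 490818 FPKM, and 11184 to 11647 genes reached 1 FPKM in each. Read totals are not given, so the depth is unknown, but steps between low values put both replicate 2 libraries at 0.772 (miR-Ctrl) and 0.798 (miR-204) of the depth of miR-Ctrl replicate 1, and the others at 0.929 to 0.962. The cartilage collagen gene Col2a1, a defining marker of the labelled cell type, lay between 7836 and 21008 FPKM with miR-204 and between 8212 and 27530 with miR-Ctrl, and was lowest in the replicate 2 library of each group. Libraries with equal replicate numbers deviated together. The number accounted for a median of 73.6% of a tested gene's sum of squares over the 8 libraries, and the group for 10.2%. There are more replicate numbers than groups, so on average the number takes the larger share even where neither has an effect. This also holds for the shares of single genes below. In bulk RNA, fewer cells of a type and less RNA per cell cannot be told apart.

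Gpnmb (gene ID 93695, chr6:49036546-49070929, plus strand) encodes a membrane glycoprotein of lysosomes and melanosomes that is also known as osteoactivin. It was at 132, 160, 79.7 and 91.6 FPKM in miR-204 replicates 1 to 4, and at 61.6, 134, 17.6 and 49.4 FPKM in miR-Ctrl replicates 1 to 4. The replicate 2 library was the highest and the replicate 3 library the lowest of each group, and the groups overlap because miR-Ctrl replicate 2 exceeded miR-204 replicates 1, 3 and 4. The means were 116 ± 37.1 FPKM with miR-204 and 65.7 ± 49.2 with miR-Ctrl (SD, n = 4 each). Within equal numbers the ratio of miR-204 to miR-Ctrl was 2.14, 1.20, 4.54 and 1.86. On the log2(FPKM + 1) scale, which understates changes of low genes, the mean difference was 1.08 ± 0.78 (SD of 4 pairs). Replicate number held 54.6% of its sum of squares and the group 32.8%.

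Cd68 (12514, chr11:69664213-69666153, minus strand), a heavily glycosylated protein of late endosomes and lysosomes and a routine stain for macrophages, was far lower. It was at 4.75, 4.74, 3.49 and 2.76 FPKM in miR-204 replicates 1 to 4, and at 2.00, 2.22, 0.545 and 1.28 FPKM in miR-Ctrl replicates 1 to 4. All miR-204 libraries lay above all miR-Ctrl libraries. The means were 3.93 ± 0.98 FPKM with miR-204 and 1.51 ± 0.76 with miR-Ctrl (SD, n = 4 each), and the ratios within equal numbers were 2.37, 2.14, 6.40 and 2.16. The log2 difference was 1.01 ± 0.36 (SD of 4 pairs), and it was 1.45 with a pseudocount of 0.1. For Cd68 the group held 68.0% of the sum of squares and replicate number 25.4%.

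Cd68 starts 782 bases beyond the end of Eif4a1, a translation initiation factor gene on the same strand. Eif4a1 lay between 212 and 284 FPKM with miR-204 and between 214 and 298 with miR-Ctrl. Cd68 was 1.30% to 2.15% of the Eif4a1 level with miR-204 and 0.232% to 0.838% with miR-Ctrl, and the part of Eif4a1 in the Cd68 values was not tested.

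Acp5 (11433, chr9:22126727-22135711, minus strand) encodes tartrate-resistant acid phosphatase, the enzyme used to stain osteoclasts. It was at 14.6, 10.1, 8.39 and 11.5 FPKM in miR-204 replicates 1 to 4, and at 8.71, 8.02, 5.12 and 7.03 FPKM in miR-Ctrl replicates 1 to 4. Only miR-204 replicate 3 fell among the miR-Ctrl values. The means were 11.2 ± 2.65 FPKM with miR-204 and 7.22 ± 1.56 with miR-Ctrl (SD, n = 4 each), with ratios of 1.68, 1.26, 1.64 and 1.64 within equal numbers. Its log2 difference of 0.56 ± 0.18 (SD of 4 pairs) had the group at 53.6% and replicate number at 42.3% of the sum of squares. The annotated transcript 6530413G14Rik covers all 8985 bases of the gene on the opposite strand. The library kit keeps strand, but no source used here says whether the counting did.

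Ctsk (13038, chr3:95499256-95509362, plus strand) encodes cathepsin K, the main collagen-degrading protease of osteoclasts, which mesenchymal cells also make. It was at 29.9, 22.8, 6.34 and 7.70 FPKM in miR-204 replicates 1 to 4, and at 25.6, 19.0, 4.44 and 7.09 FPKM in miR-Ctrl replicates 1 to 4. Replicates 1 and 2 were high in both groups and replicates 3 and 4 low, and the groups overlapped almost wholly. The ratio within equal numbers was 1.17, 1.20, 1.43 and 1.09. The log2 difference was 0.25 ± 0.14 (SD of 4 pairs), and replicate number held 97.7% of the sum of squares against 1.85% for the group. Over 20 alternative settings the difference ranged from -0.14 to 0.62. It was below 0 without miR-204 replicate 1 and without miR-Ctrl replicate 3, each of which leaves a library without its partner. Leaving out whole pairs gave 0.26 without pair 1, 0.25 without pair 2, 0.19 without pair 3 and 0.30 without pair 4.

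Ctss (13040, chr3:95526786-95556403, plus strand), the gene of cathepsin S, a protease of antigen-presenting cells, lies 17423 bases beyond Ctsk. It was at 0.180, 0.158, 0.0435 and 0.0871 FPKM in miR-204 replicates 1 to 4, and at 0.271, 0.244, 0.0673 and 0.0437 FPKM in miR-Ctrl replicates 1 to 4. Like Ctsk, it was higher in replicates 1 and 2 of both groups, but its miR-204 value was the lower one in pairs 1, 2 and 3. Ctsk exceeded Ctss by 88.4- to 166-fold with miR-204 and by 66.0- to 162-fold with miR-Ctrl.

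Lyz2 (17105, chr10:117277331-117282321, minus strand) encodes the lysozyme of macrophages and neutrophils. It was at 11.1, 10.8, 4.98 and 5.90 FPKM in miR-204 replicates 1 to 4, and at 10.0, 9.51, 2.55 and 3.16 FPKM in miR-Ctrl replicates 1 to 4. Replicates 1 and 2 were again the high ones, and the groups overlap. The ratios within equal numbers were 1.11, 1.14, 1.95 and 1.87, with a log2 difference of 0.45 ± 0.34 (SD of 4 pairs). Its paralog Lyz1 has a coding sequence 95.0% identical to that of Lyz2 (422 of 444 bases), so the split of reads between them is uncertain. Lyz1 lay between 0.118 and 0.429 FPKM with miR-204 and between 0.190 and 0.577 with miR-Ctrl.

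Laptm5 (16792, chr4:130913125-130936141, plus strand) encodes a lysosomal membrane protein of blood cells. It was at 2.74, 2.41, 5.45 and 3.87 FPKM in miR-204 replicates 1 to 4, and at 2.75, 2.02, 5.50 and 3.74 FPKM in miR-Ctrl replicates 1 to 4. Its order over the replicate numbers was the reverse of that of Ctsk and Lyz2: replicates 3 and 4 were high and 1 and 2 low in both groups. The groups lay on top of each other, with a log2 difference of 0.05 ± 0.09 (SD of 4 pairs) and 98.6% of the sum of squares between replicate numbers.

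The leukocyte receptors were near the bottom of the measurable range. Csf1r (12978, chr18:61100598-61132149, plus strand), the CSF1 receptor, was at 0.136, 0.193, 0.0766 and 0.0417 FPKM in miR-204 replicates 1 to 4, and at 0.141, 0.147, 0.0721 and 0.0840 FPKM in miR-Ctrl replicates 1 to 4. Its last 873 bases overlap Hmgxb3 on the opposite strand, which averaged 8.60 FPKM. The means of Csf1r were 0.112 ± 0.066 FPKM with miR-204 and 0.111 ± 0.038 with miR-Ctrl (SD, n = 4 each), a difference well within the spread of either group.

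Ptprc (19264, chr1:138062861-138175708, minus strand) encodes CD45, the phosphatase carried by all leukocytes. It was at 0.00529, 0.0309, 0 and 0.0103 FPKM in miR-204 replicates 1 to 4, and at 0.00496, 0.0256, 0.00533 and 0.00517 FPKM in miR-Ctrl replicates 1 to 4. Set to equal depth, these are 1, 5, 0 and 2 steps of the smallest value with miR-204 and 1, 4, 1 and 1 steps with miR-Ctrl, each within 0.0211 of a whole number. The replicate 2 library was the highest of each group. With sums of 8 steps in miR-204 and 7 in miR-Ctrl, a difference between the groups was not detectable at this depth.

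Set against Csf1r in the same library, Gpnmb was 832 to 2197 times as high with miR-204 and 243 to 911 times with miR-Ctrl, with a small overlap. Cd68 was 24.6 to 66.3 times as high as Csf1r with miR-204 and 7.56 to 15.2 times with miR-Ctrl. These ranges do not overlap, and neither do those of Cd68 itself. Acp5 was 52.4 to 276 times as high with miR-204 and 54.5 to 83.7 times with miR-Ctrl, which overlap. So did the ranges of the remaining genes. Ctsk was at 82.8 to 220 times Csf1r with miR-204 and 61.5 to 182 with miR-Ctrl. Lyz2 was at 56.2 to 142 with miR-204 and 35.4 to 71.2 with miR-Ctrl. Laptm5 was at 12.5 to 92.7 with miR-204 and 13.7 to 76.3 with miR-Ctrl. Ctss was at 0.567 to 2.09 with miR-204 and 0.521 to 1.93 with miR-Ctrl. For every gene but Ctsk, the upper end with miR-204 came from replicate 4, where Csf1r was at its lowest, 0.0417 FPKM. The share of all genes whose ratio to Csf1r does not overlap was not computed, so nothing is read from the ratio of Cd68.

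Most other markers of blood cells also averaged below 1 FPKM, though several lay above the receptors. Of 22 further macrophage genes, 20 averaged below 1 FPKM and 19 below 0.2. The 20 low genes summed to between 0.588 and 2.63 FPKM with miR-204 and between 0.680 and 3.48 with miR-Ctrl, and none was at 0 in every library. Fcer1g, Tyrobp, C1qa and Adgre1 (listed as Emr1), chosen after their values were seen, averaged 0.151, 0.115, 0.140 and 0.0711 FPKM over the 8 libraries. Of the same 20 genes, 16 (80.0%) had the lower mean with miR-204, against 41.3% of the 7237 genes that averaged below 1 FPKM and were above 0 in some library. In the lists given below, 5 of 10 low genes shared by leukocytes and 4 of 8 low osteoclast genes had the lower mean (50% each). The 20 genes lie near 0 and rise and fall together over the replicate numbers, so they are not 20 separate observations. Highest among these 20 macrophage genes were Lyz1 and the lipid receptor gene Trem2, which lay between 0.0563 and 0.440 FPKM with miR-204 and between 0 and 0.386 with miR-Ctrl.

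Among the 22 macrophage genes, Cd14, a co-receptor for bacterial lipopolysaccharide, averaged above 1 FPKM, at 3.02 ± 2.23 FPKM with miR-204 and at 3.53 ± 4.20 with miR-Ctrl (SD, n = 4 each). Its replicate 2 libraries, at 6.30 FPKM with miR-204 and 9.80 with miR-Ctrl, were far above the other 6.

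Of 12 further genes shared by leukocytes, 10 averaged below 1 FPKM. The highest of these were the integrin gene Itgb2, at 0.400 ± 0.368 FPKM with miR-204 and 0.315 ± 0.399 with miR-Ctrl, and the adaptor gene Hcls1, at 0.326 ± 0.116 with miR-204 and 0.265 ± 0.061 with miR-Ctrl (SD, n = 4 each). Arhgdib, which encodes a GTPase inhibitor, averaged 26.6 ± 5.98 FPKM with miR-204 and 20.4 ± 14.8 with miR-Ctrl. Lcp1, an actin-bundling protein of leukocytes that many cultured cells also make, was at 1.97, 3.04, 4.16 and 2.75 FPKM in miR-204 replicates 1 to 4, and at 1.28, 1.37, 2.10 and 1.73 FPKM in miR-Ctrl replicates 1 to 4. Its groups overlap only through miR-204 replicate 1.

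Osteoclast genes were split the same way. Of 16 further genes, 8 averaged below 0.2 FPKM, among them the fusion genes Ocstamp and Dcstamp, the calcitonin receptor gene Calcr and Tnfrsf11a, which encodes the RANKL receptor (0.0251, 0.00963, 0.0114 and 0.0469 FPKM over the 8 libraries, named after their values were seen). Highest of the low ones was the carbonic anhydrase gene Car2, at 0.282 ± 0.129 FPKM with miR-204 and 0.0959 ± 0.0473 with miR-Ctrl. The immune receptor gene Oscar was at 0.147 ± 0.045 FPKM with miR-204 and 0.123 ± 0.050 with miR-Ctrl (SD, n = 4 each). Above 1 FPKM were mostly genes of acid transport and signalling, such as the lysosomal chloride transporter gene Clcn7, at 20.6 ± 2.61 FPKM with miR-204 and 19.6 ± 2.47 with miR-Ctrl.

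**Figure D2:**
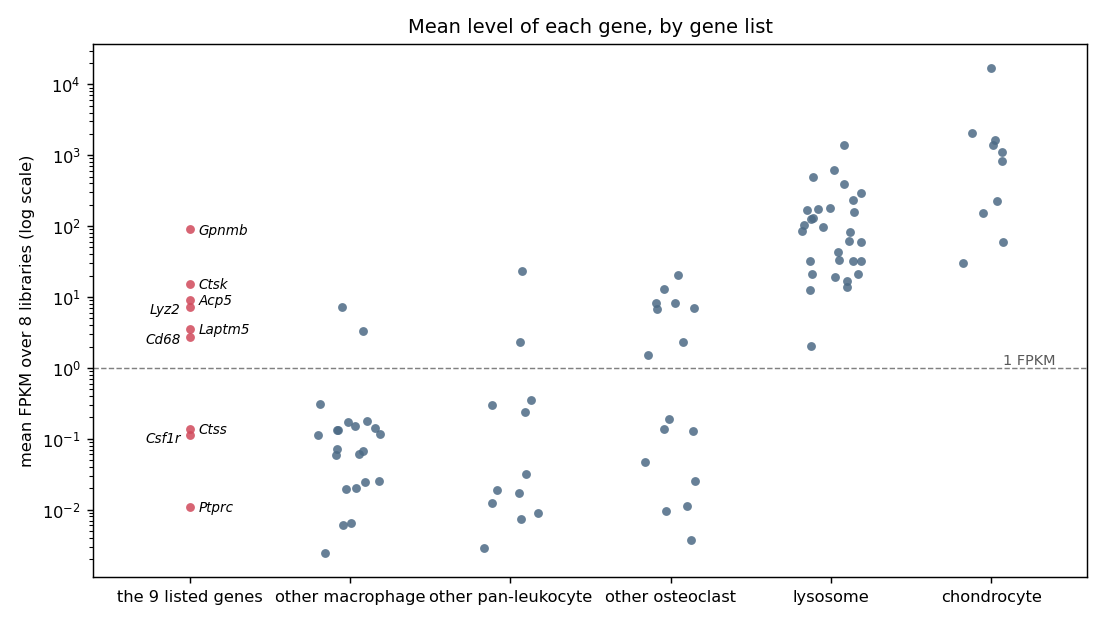
Mean FPKM over 8 libraries, on a log axis, of the 9 genes and of each gene in 5 further lists, with 1 point per gene (spread sideways only for legibility) and a dashed line at 1 FPKM. Of the 22 other macrophage genes 20 lie below the line, while all 30 lysosome genes lie above it and Gpnmb lies among them.

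Lysosomal genes in general were far higher than most markers of blood cells. All 30 genes of the lysosome list passed 1 FPKM, with a median of their means of 83.1 FPKM. Ctsd, which encodes cathepsin D, was at 1484 ± 232 FPKM with miR-204 and 1324 ± 184 with miR-Ctrl. The tetraspanin gene Cd63 was at 596 ± 113 FPKM with miR-204 and 623 ± 176 with miR-Ctrl, and Psap, which encodes the precursor of the saposins, at 507 ± 56.2 with miR-204 and 470 ± 104 with miR-Ctrl (SD, n = 4 each). Gpnmb was thus close to the middle of the lysosome list, and Cd68 near its lower end, where Ctsc, a peptidase gene named after its values were seen, averaged 2.05 FPKM.

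The replicate numbers ordered the 9 genes in different ways. The mean of replicates 1 and 2 over that of 3 and 4 was 3.75 with miR-204 and 3.86 with miR-Ctrl for Ctsk, and 2.01 with miR-204 and 3.42 with miR-Ctrl for Lyz2. For Csf1r the same ratio was 2.78 with miR-204 and 1.84 with miR-Ctrl, and for Ctss 2.59 with miR-204 and 4.65 with miR-Ctrl. The 20 low macrophage genes together were also higher there, at 2.43 and 2.63 FPKM in miR-204 replicates 1 and 2 and at 0.792 and 0.588 in replicates 3 and 4. In miR-Ctrl their sums were 2.99 and 3.48 FPKM in replicates 1 and 2, and 0.680 and 0.911 in replicates 3 and 4. Gpnmb and Cd68 also had the higher mean in replicates 1 and 2. The ratio was 1.71 with miR-204 and 2.92 with miR-Ctrl for Gpnmb, and 1.52 with miR-204 and 2.32 with miR-Ctrl for Cd68. Ptprc, highest in replicate 2, had 3.5 with miR-204 and 2.9 with miR-Ctrl. The part of the low macrophage genes in these patterns was not tested. Acp5 varied less with the number, with ratios of 1.24 with miR-204 and 1.38 with miR-Ctrl, and Laptm5 went the other way, at 0.554 with miR-204 and 0.516 with miR-Ctrl.

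Over the 8 libraries, which share the replicate numbers and the groups, Pearson's r of log2(FPKM + 1) is given as a description. Ctsk and Lyz2 had r = 0.94, Gpnmb and Cd68 0.90, and Cd68 and Acp5 0.87. Gpnmb had 0.83 with Lyz2, 0.79 with Acp5 and 0.70 with Ctsk, and Cd68 had 0.76 with Lyz2 and 0.62 with Ctsk, so the 5 genes were positive with each other and formed no separate groups. Laptm5 was negative with each of the other 5 genes above 1 FPKM, down to -0.88 with Ctsk. Many genes resembled Gpnmb more than these did: Cd68 ranked 575th and Lyz2 1338th of 11611 tested genes by r with Gpnmb. The first 5 were Dpp7, which encodes a lysosomal dipeptidyl peptidase (r = 0.99), Fech (0.99), Cdk5 (0.99), Nsdhl (0.99) and S100a13 (0.98). Most like Cd68 were Atp6v1d, a subunit gene of the vacuolar proton pump (0.97), 2010107E04Rik (0.97), Slc22a4 (0.97), Ndufa3 (0.96) and Rev1 (0.96), with Gpnmb ranked 153rd and Acp5 264th. For Ptprc, whose values are a few steps above 0, the first 5 were Ubtd2, Azi2, Eml4, Mtf2 and Uhrf1bp1l (r between 0.98 and 0.99), and none of the 6 genes above 1 FPKM ranked higher than 4526th.

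**Figure D3:**
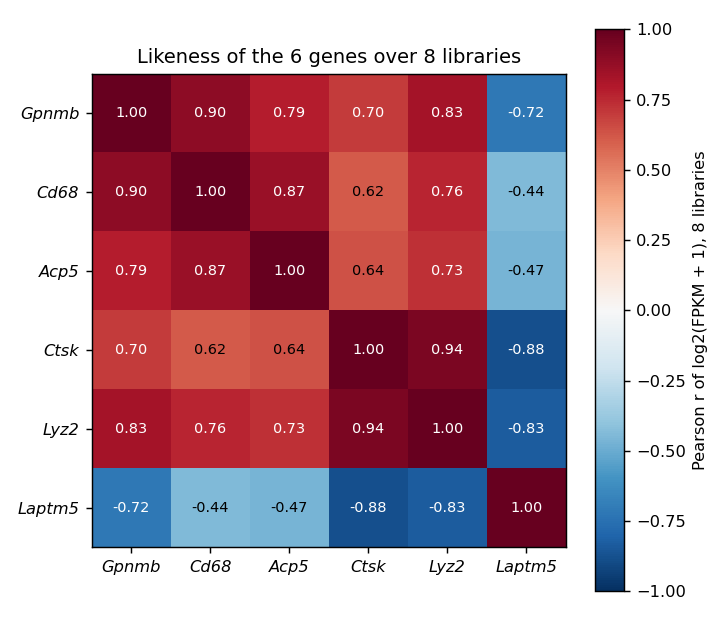
Pearson's r of log2(FPKM + 1) over the 8 libraries for each pair of the 6 genes that average 1 FPKM or more, from blue (-1) to red (1). Gpnmb, Cd68 and Acp5 are positive with each other (0.79 to 0.90), as are Ctsk and Lyz2 (0.94), with values between 0.62 and 0.83 across these sets, and the row of Laptm5 is negative throughout.

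The comparison of miR-204 with miR-Ctrl asks which transcripts the mimic moves. By limma on log2(FPKM + 1) without the replicate number, with Benjamini-Hochberg adjustment at 0.05, 0.0258% of 11612 tested genes were higher with miR-204 (3 genes) and 0.181% lower (21 genes). Of the 6 tested genes of the 9, 0 passed, and 2 had an unadjusted p under 0.05 (763 of all genes did so upwards). With the replicate number as a block, 12.4% of all genes were higher and 2.83% lower. Gpnmb, Cd68, Acp5 and Ctsk were among the higher, which is 4 of 6. With each library also centred on its median, 4.99% were higher and 4.32% lower, and Cd68 and Acp5 were still past the threshold. Without pair 1, 0 of the 6 were past it (5 had an unadjusted p under 0.05). Without pair 2, 5 were past it, without pair 3 Cd68 and Acp5 were, and without pair 4 Cd68 was. Of all genes tested in each of these fits, 1.18% were higher without pair 1, 24.5% without pair 2, 2.27% without pair 3 and 0.760% without pair 4. Since the genes were chosen with their differences known, passing is not a test of them, and nothing is read from these counts.

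The same holds for the order of the values. The groups did not overlap, with miR-204 higher, in 4.32% of all tested genes and in 1 of the 6 (Cd68). All 4 pairs were higher with miR-204 in 33.9% of all tested genes and in 5 of the 6, all but Laptm5. The median log2 fold change of all tested genes was 0.064, with 8609 of 11612 above 0, so small positive differences such as that of Laptm5 (0.05) were typical of the table.

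**Figure D4:**
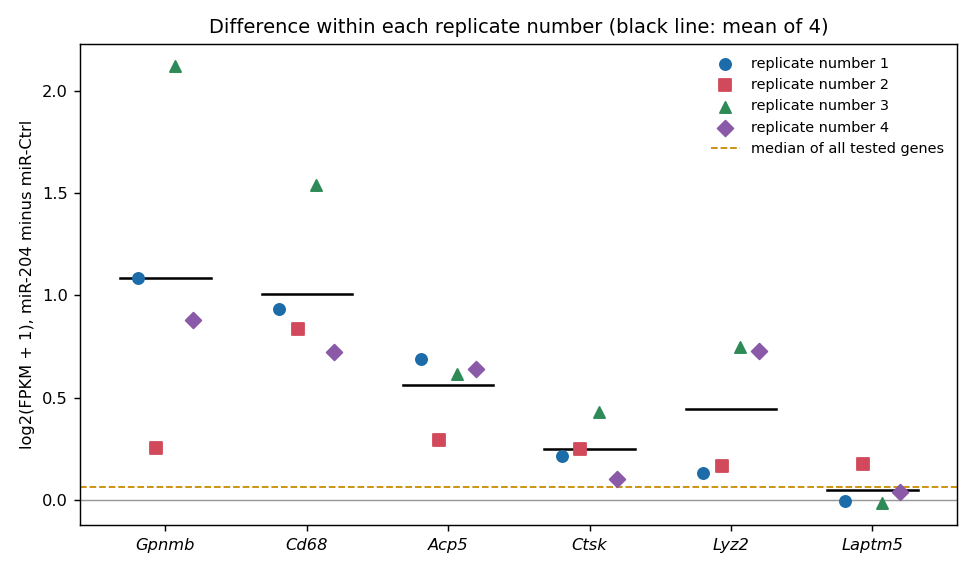
Difference in log2(FPKM + 1), miR-204 minus miR-Ctrl, within each replicate number for the 6 genes that average 1 FPKM or more; the black line is the mean of 4 pairs. Gpnmb ranges from 0.25 (pair 2) to 2.12 (pair 3) and Cd68 from 0.72 to 1.54, while Laptm5 stays between -0.01 and 0.18.

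The other genes of these lists were tested across the whole table in the same fits. In the macrophage list 0 of 2 tested genes passed limma's unpaired or paired test (0 at an unadjusted p under 0.05 unpaired, 1 lower paired). Cd14 had a log2 fold change of 0.06 (adjusted p = 0.815 by paired limma). Without pair 2, Cd14 passed as higher. In the pan-leukocyte list Lcp1 rose by 0.59 on the log2 scale (SE 0.08, adjusted p = 0.0115 by paired limma and 0.377 unpaired), higher in 4 of 4 pairs. Arhgdib, at 0.56, did not pass (adjusted p = 0.0996 by paired limma), and was lower with miR-204 in pair 2. Leaving out pair 2 put Arhgdib past the threshold, and leaving out pair 4 took Lcp1 below it.

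Of the 8 tested osteoclast genes, 2 rose by paired limma, beside 12.4% of all genes, and 0 unpaired, where 0 also had an unadjusted p under 0.05. Ostm1, which encodes the partner subunit of the Clcn7 chloride transporter, was at 7.82 ± 1.03 FPKM with miR-204 and 6.12 ± 1.34 with miR-Ctrl (log2 fold change 0.32, adjusted p = 0.0165 by paired limma). The kinase gene Src was at 14.4 ± 2.24 FPKM with miR-204 and 12.0 ± 3.09 with miR-Ctrl (0.26, adjusted p = 0.0358), and did not pass with libraries centred (adjusted p = 0.0698). Ostm1 was named after its values were seen. Clcn7 (0.07, adjusted p = 0.224) and Nfatc1, the transcription factor gene that directs osteoclast formation (0.09, adjusted p = 0.151), did not pass by paired limma. The median of the 8 was 0.14, above the 0.064 of all genes, and leaving out pair 1, 3 or 4 left 0 past the threshold (3, 5 and 3 genes higher at an unadjusted p under 0.05). Leaving out pair 2 left 3 of the 7 then tested higher, beside 24.5% of all genes: Ostm1, Src and the proton pump subunit gene Tcirg1.

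Of the 30 lysosome genes, 4 rose and 1 fell by paired limma, shares close to the 12.4% of all genes that were higher and the 2.83% that were lower, and 0 passed unpaired, where 0 also had an unadjusted p under 0.05. All 5 were named after their values were seen. Lipa, which encodes lysosomal acid lipase, rose by 0.38 on the log2 scale (adjusted p = 0.00816), the peptidase gene Ctsc by 0.35 (adjusted p = 0.0206), the membrane protein gene Lamp2 by 0.23 (adjusted p = 0.0231) and the sialidase gene Neu1 by 0.19 (adjusted p = 0.0432 by paired limma, 0.107 with libraries centred). Lamp1, which encodes a main glycoprotein of the lysosomal membrane, was at 386, 409, 307 and 332 FPKM in miR-204 replicates 1 to 4, and at 445, 560, 340 and 414 FPKM in miR-Ctrl replicates 1 to 4. It fell by 0.28 on the log2 scale (adjusted p = 0.0276 by paired limma), and was lower in 4 of 4 pairs. Ctsd (0.16, adjusted p = 0.0699), Psap (0.13, adjusted p = 0.201) and Cd63 (-0.04, adjusted p = 0.724) did not pass by paired limma.

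The lysosome counts depended on which pair was left out. The median log2 fold change of its 30 genes was 0.13, with 27 above 0, but in pair 2 only 10 of 30 were above 0 (median -0.04), against 28 in pair 1, 28 in pair 3 and 26 in pair 4. Leaving out pair 2 gave 21 higher and 1 lower by paired limma, in a fit where the share of all genes higher also grew, to 24.5% (4.64% were lower). Whether the list differs from other genes there was not tested. Leaving out pair 1 left 0 in either direction (4 higher and 2 lower at an unadjusted p under 0.05), and leaving out pair 3 or pair 4 left 1 (Lipa). Gpnmb had its smallest difference in pair 2.

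The sites printed above place Lamp1 and Ctsb among the genes with the strongest kind of miR-204-5p match. A 7mer or 8mer was found in the 3′ UTR of 6 of the 30 lysosome genes, against 25.7% of all 11193 tested genes with an annotated 3′ UTR. Of those named here, Lamp1 (-0.28) and Ctsb, which encodes cathepsin B (0.24, adjusted p = 0.131 by paired limma), held an 8mer. Of the 24 genes with a 6mer or no match, 23 were above 0, and of the 6 with a 7mer or 8mer, 4 were above 0 and 2 below. The share below 0 over all tested genes was 24.1% with a 6mer and 20.0% with no match. It was 49.4% with an 8mer, 38.4% with a 7mer-m8 and 30.0% with a 7mer-A1. Whether the lysosome genes differ from these shares was not tested. Over all tested genes the median log2 fold change was 0.00095 for those with an 8mer, 0.027 with a 7mer-m8, 0.046 with a 7mer-A1, 0.063 with a 6mer and 0.079 with no match.

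**Figure D5:**
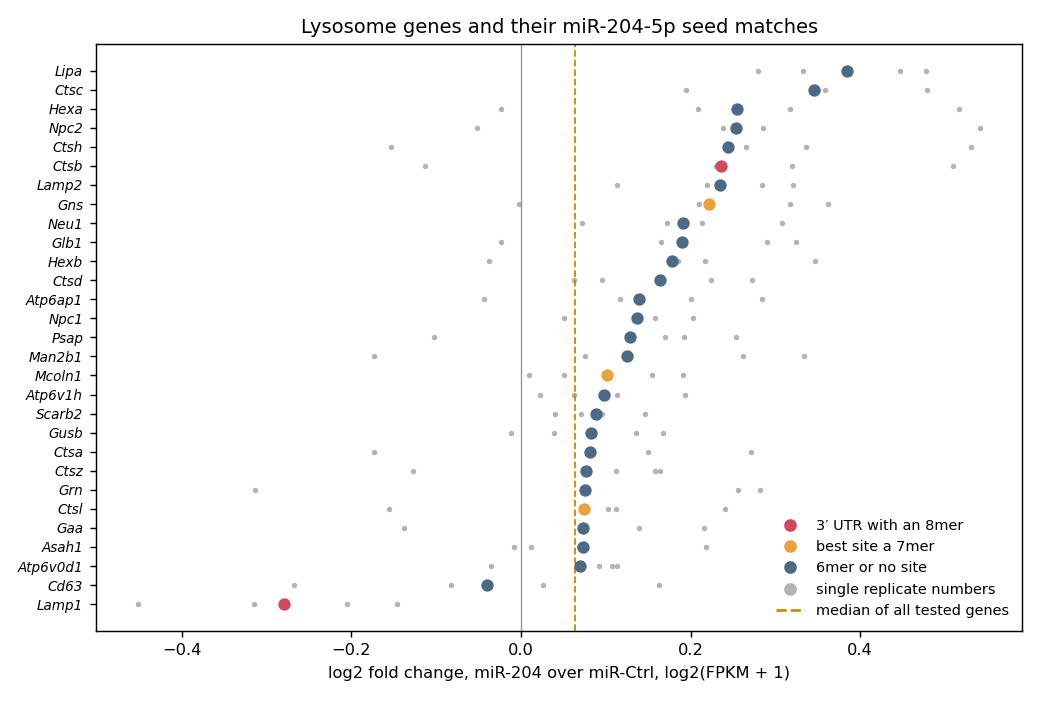
Log2 fold change, miR-204 over miR-Ctrl, of the lysosome genes reported here (large points, coloured by the best miR-204-5p match in the 3′ UTR) with the difference in each replicate number (small grey points) and the median of all tested genes (dashed line at 0.064). Lamp1 (-0.28), which holds an 8mer, and Cd63 (-0.04) lie below 0, and Lipa is highest at 0.38.

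Of the 9 genes, Gpnmb held the only 7mer, the 7mer-A1 printed above in a 3′ UTR of 1868 bases, and its difference was positive, at 1.08. Cd68, Acp5, Ctss, Lyz2 and Laptm5 had no match of any kind in 3′ UTRs of 158, 293, 218, 790 and 1591 bases. Ctsk and Ptprc had a single 6mer each, and Csf1r had 4.

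Of the factors and ligands around these genes, none passed the test over all 8 libraries. Tfeb, a driver of lysosomal gene transcription, was at 5.15 ± 0.78 FPKM with miR-204 and 4.22 ± 0.47 with miR-Ctrl (log2 fold change 0.23, adjusted p = 0.0509 by paired limma). Tfe3 was at 19.5 ± 2.72 FPKM with miR-204 and 19.9 ± 3.58 with miR-Ctrl (-0.03, adjusted p = 0.683), and Mitf at 2.22 ± 0.53 with miR-204 and 1.91 ± 0.63 with miR-Ctrl (0.15, adjusted p = 0.170). Of these 3 tested factors 0 passed limma either way (0 at an unadjusted p under 0.05 unpaired, 1 paired), and Tfeb passed when pair 2 was left out. Tfec averaged 0.0044 FPKM.

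Csf1, the growth factor of macrophages and osteoclasts, was made at 57.9 ± 22.4 FPKM with miR-204 and 46.5 ± 19.4 with miR-Ctrl (0.33, adjusted p = 0.0584 by paired limma). Tnfrsf11b, which encodes the decoy receptor that blocks RANKL, was at 87.5 ± 24.1 FPKM with miR-204 and 75.7 ± 14.5 with miR-Ctrl (0.19, adjusted p = 0.0603). Il34, which encodes the other ligand of the Csf1r receptor, was at 4.07 ± 2.67 FPKM with miR-204 and 3.53 ± 3.72 with miR-Ctrl (0.32, adjusted p = 0.145). Of these 3 tested genes 0 passed limma either way (0 at an unadjusted p under 0.05 unpaired, 2 paired), and Il34 and Tnfrsf11b passed when pair 2 was left out.

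The promoters of Gpnmb and Acp5, 300 bases each around the annotated start, are shown as examples of genes higher with miR-204 within each pair. Both are known targets of the MiT/TFE factor Mitf in other cells, which is not meant to set them apart from the other genes. Cd68, Ctsk and Lyz2, which were also higher within each pair, are not shown, and held none of the words searched below. The sequences are from RefSeq (GRCm38.p6), at chr6:49036268-49036567 (Gpnmb, plus strand) and, for the third of 3 annotated starts of Acp5, chr9:22130549-22130848 (minus strand). That start is the only one of the 3 with a match to the words searched below.
Gpnmb promoter: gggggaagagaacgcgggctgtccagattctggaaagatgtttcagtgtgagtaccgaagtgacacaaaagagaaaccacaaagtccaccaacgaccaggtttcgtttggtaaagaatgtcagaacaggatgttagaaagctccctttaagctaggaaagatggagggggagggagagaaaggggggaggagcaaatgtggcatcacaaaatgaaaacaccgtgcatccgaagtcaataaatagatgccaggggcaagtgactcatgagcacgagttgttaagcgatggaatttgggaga
Acp5 promoter: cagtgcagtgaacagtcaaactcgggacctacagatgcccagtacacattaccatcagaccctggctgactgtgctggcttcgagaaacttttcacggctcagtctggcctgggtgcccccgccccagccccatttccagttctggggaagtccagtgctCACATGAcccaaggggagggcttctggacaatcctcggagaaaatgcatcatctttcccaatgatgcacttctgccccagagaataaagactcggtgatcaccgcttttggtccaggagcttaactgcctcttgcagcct
Promoters were searched on both strands for TCACGTG, for the shorter word CACGTG that it contains, and for TCATGTG, all bound by MiT/TFE proteins, and for GAGGAAGT, a word like those bound by the myeloid factor PU.1. All 8 genes with a promoter sequence that could be shown were searched, together with every other promoter of the table. The capitals in Acp5 mark TCATGTG on the opposite strand, at positions -90 to -84 from the start, and Ctss held TCATGTG and GAGGAAGT. No other match was found in these windows for Gpnmb, Cd68, Acp5, Ctsk, Ctss, Lyz2, Laptm5 or Ptprc. Of 32851 promoters of this length, 3.77% held TCACGTG, 7.15% CACGTG, 3.77% TCATGTG and 3.20% GAGGAAGT.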

How the data were processed

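RNA of 8 libraries was sequenced, 4 per group, and the deposited table gives 1 FPKM value per gene and library. Alignment and quantification used TopHat, Cufflinks 2.2.1 and the build mm10, per the submitters' processing notes. The TopHat version, the Cufflinks mode, any filter and the use of strand were not given in the sources. A gene's FPKM drops where other genes take more fragments.

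The 9 genes and all lists were chosen with earlier results of these data known. R 4.3.3 with limma 3.58.1 (trended prior, two-sided, Benjamini-Hochberg adjustment) tested log2(FPKM + 1) of the 11612 genes averaging 1 FPKM or more, after a run on simulated data. Libraries of equal replicate number deviated together from their group means (r = 0.44, 0.82, 0.76 and 0.62 for numbers 1 to 4). The labels do not explain the numbers, so the pairing rests on the data, and paired results stand beside unpaired ones. No source calls the replicates separate cultures, and the p-values then cover the spread between these samples alone, part or all of which may be technical.

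Named from each list were genes past the unpaired threshold, the 3 with the highest mean, and, for blood-cell and osteoclast lists, the 2 highest below 1 FPKM. Likeness used the 5 highest r. Some genes that this rule would name are not reported here. Seed matches were searched in GENCODE M21 3′ UTRs, and coding sequences were aligned with Biopython 1.88.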

Additional observations from a re-analysis of the deposited data

Results flagged for a closer look

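Within groups of 4 libraries, a library standing far from the other 3 (a gap to its nearest neighbour above Dixon's critical value as a share of the group's range) was found in 9 of the 62 groups examined, which cover 31 genes. Chance flags about 1 in 20 groups. Of the 9, 8 were replicate 2 libraries. In miR-204 these were Arhgdib in replicate 2, at 35.6 FPKM, and Ctsd in replicate 1, at 1829 FPKM. In miR-Ctrl replicate 2 they were Ptprc at 0.0256 FPKM, Cd14 at 9.80, Arhgdib at 42.4, Src at 16.6, Tfe3 at 25.3, Mitf at 2.85 and Il34 at 9.10 FPKM. Each was the highest of its group, and the Ptprc value is 4 steps of the smallest value.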

How the results depend on the processing

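Without the replicate number, limma put 3 genes higher and 21 lower after the mimic. With the replicate block, these counts were 1436 and 329. They were 0 and 9 with no filter on low values (1123 higher and 357 lower at an unadjusted p under 0.05), 8 and 55 with libraries centred on their median, and 7 and 66 with quantile normalization. The block gave 579 and 502 with centred libraries and 555 and 536 with quantile normalization. Without a single library the counts ranged from 0 to 4 higher and from 1 to 16 lower, and they were 2 and 16 without both replicate 2 libraries. The block, leaving out one pair, gave 137 and 93 without pair 1, 2828 and 535 without pair 2, 264 and 153 without pair 3, and 88 and 82 without pair 4. The paired fits without 1 pair and the block with quantile normalization were chosen after seeing the data. The cause was not tested.

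Gpnmb (0.58 to 1.53), Cd68 (0.79 to 1.45), Acp5 (0.43 to 0.68) and Lyz2 (0.16 to 0.70) had a log2 fold change above 0 in 20 of 20 alternatives. That of Ctsk was above 0 in 18 of 20 and that of Laptm5 in 13 of 20. These alternatives refit the same libraries and are not separate checks. The replicate block alone and the fit without a filter leave the fold change as it was. The genes were chosen with their differences known, so nothing is read from these counts. Only Cd68 and Ctss (-0.17) moved by more than the spread between replicates, both with a pseudocount of 0.1. Ctss, Csf1r and Ptprc averaged below the 1 FPKM needed for testing. Ptprc rests on a few steps above 0, and how large a difference could be detected in Ctss and Csf1r was not computed.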

Other observations

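Some markers of other cells stood apart in replicate 2, and others of the same lists did not. Of 7 neutrophil genes, the antimicrobial peptide gene Camp was at 15.7 FPKM in miR-204 replicate 2 and 15.4 in miR-Ctrl replicate 2, and at no more than 0.763 with miR-204 and 0.691 with miR-Ctrl in the others. S100a8 was also highest there, at 1.33 FPKM with miR-204 and 3.45 with miR-Ctrl. The other 5 did not follow them: S100a9 and Ltf were listed at 0 in all 8 libraries, Ngp and Elane at 0 in both replicate 2 libraries, and Mpo at no more than 0.0135 FPKM. The gelatinase gene Mmp9, which neutrophils and osteoclasts make, was at 8.86 FPKM in miR-204 replicate 2 and 8.54 in miR-Ctrl replicate 2, and below 1 FPKM elsewhere. Of the 3 bone-forming cell genes above 1 FPKM, the bone matrix gene Ibsp was at 14.3 FPKM in miR-204 replicate 2 and 12.1 in miR-Ctrl replicate 2, with 0.680 to 3.57 in the other miR-204 libraries and 0.284 to 1.34 in the other miR-Ctrl libraries. Bglap, which encodes osteocalcin, was also highest in replicate 2, at 6.998 FPKM with miR-204 and 9.15 with miR-Ctrl. The transcription factor gene Sp7 was not, at 2.16 FPKM in miR-204 replicate 2 and 1.47 in miR-Ctrl replicate 2, against 1.80 to 3.57 in the other miR-204 libraries and 2.43 to 3.79 in the other miR-Ctrl libraries. Of 6 lymphocyte genes, 4 were listed at 0 in all 8 libraries, and the 6 endothelial genes summed to between 0.182 and 0.440 FPKM with miR-204 and between 0.121 and 0.374 with miR-Ctrl. These genes were named after their values were seen.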
